A study of Arabidopsis thaliana with 6 samples.

Results

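Small heat shock proteins are chaperones with an alpha-crystallin domain that form oligomers and hold unfolding proteins in a soluble state until HSP70 and HSP100 chaperones refold them. Plants have an unusually large family, with separate classes in the cytosol and further forms in mitochondria, the endoplasmic reticulum (ER), plastids and peroxisomes. Most of their genes are known for low transcript levels in unstressed vegetative tissue and for strong induction by heat through heat shock transcription factors. Some are also known from seed maturation and from oxidative stress.

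The family was described here from 10 Arabidopsis thaliana genes listed by locus code, each kept if the array carried a probe set that the platform annotation assigns to that gene alone. This left 5 of the 10 genes, out of 13356 genes with a probe set of their own. Of 7 cytosolic genes, HSP17.6C (AT1G53540) and AT2G29500 of class I and AT1G54050 of class III were kept. Of 2 mitochondrial genes AT5G51440 was kept, and the 1 ER gene listed, ATHSP22.0 (AT4G10250), was kept. The compartments come from general knowledge of the family. AT1G07400 and AT1G59860, both of cytosolic class I, share 1 probe set and were left out of the counts. AT5G12020 and AT5G12030 of class II and the mitochondrial AT4G25200 have no named probe set in the annotation and were not analysed here.

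Levels were measured on 6 Affymetrix ATH1 arrays, with 1 RNA sample each. The 3 arrays of sorted G2/M cells held cells taken by fluorescence-activated cell sorting from roots with a CYCB1;1-GFP reporter. CYCB1;1 is a mitotic cyclin, so the reporter marks cells around division. The other 3 arrays held complete root meristems dissected under a microscope. All samples were of accession Col-0 grown on agar with sucrose, no heat treatment is named in the labels for either group, and the labels do not say whether the dissected meristems carried the reporter. The labels give neither plant age nor the number of plants per sample. The series calls the samples biological replicates, so p-values rest on the spread among these samples, which may be technical.

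Values are the authors' log2 values. The lowest deposited value, 2.27, is a background level at which 28.2% of all values stand. A group mean within 0.5 of it is called near the floor, and no fold is given against such a group. Differences are given as the mean of the sorted arrays minus that of the meristem arrays in log2 units, with the standard error (SE) and 95% interval of a limma fit over 22746 probe sets. A call is a Benjamini-Hochberg adjusted p under 0.05 over all of them. Median levels of the arrays lay between 3.61 and 3.79 for sorted arrays and between 3.70 and 3.72 for meristem arrays. The number of arrays limits the precision.

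Mitotic genes were higher on the sorted arrays. All 4 measured genes of 11 listed mitotic genes rose, where 4.44% of all probe sets were called higher: AUR1, AUR2 and AUR3, which encode Aurora kinases, and BUBR1 of the spindle checkpoint, by 1.90 to 2.73. With the replicate number as a block all 4 calls were lost (limma adjusted p between 0.0689 and 0.130), and AUR3 and BUBR1 also lost their calls when sorted replicate 3 or a meristem array was left out (0.0594 to 0.0976). CYCB1;1 itself was not analysed here. Of 12 listed markers of other root cells 3 were measured. The cortex markers AT1G09750 (difference -4.52) and AT1G62500 (-0.79) fell. AT1G62500 was not called with the replicate block (limma adjusted p = 0.129) or with a trended robust prior (0.0860). It was also not called without sorted replicate 2 or 3 or meristem replicate 1 or 3 (0.0555 to 0.0709). With the spike-in split described below as a block, its difference was -0.81. The root hair expansin gene EXPA7 stood at 7.07 in sorted replicate 1, 2.42 in replicate 2 and 2.69 in replicate 3, against 2.27 to 2.29 in the meristems. The summed linear level of these 3 markers ran between 23.7 and 155.7 in the sorted arrays and between 163.0 and 263.0 in the meristems. This sum mixes markers that moved in opposite directions. The 155.7 is that of sorted replicate 1, where EXPA7 was high and AT1G09750 stood at 3.42. AT1G09750 stood at 7.14 to 7.91 in the meristems. The control probe set for 25S ribosomal RNA also moved with the groups, at 12.69 to 13.10 in the sorted arrays and 11.29 to 11.40 in the meristems. The 3′ minus 5′ difference of the GAPDH controls, a sign of RNA integrity, was 1.09 to 1.14 in the sorted arrays and 1.00 to 1.16 in the meristems. Poly-A spike-in controls were high in sorted replicate 1 (mean 5.87) and in the meristems (6.33 to 7.34), and low in sorted replicates 2 and 3 (3.09 and 2.98). The part of these values in the results below was not tested, except that each result was also computed with the spike-in split as a block.

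The measured cytosolic and mitochondrial small heat shock genes stood far higher in the sorted G2/M cells than in the root meristems. All 3 cytosolic genes and the 1 mitochondrial gene rose, by 3.20 to 3.91 log2 or 9.17 to 15.1 times. The ER gene stayed near the floor in both groups and was not called. In all, 4 of the 5 genes were called higher and 0 lower, where 4.44% of all probe sets were called higher and 11.5% were called in either direction. The genes were chosen with earlier results of these data known, so these shares are no test of the family. In each of the 5 genes the sorted arrays lay above the meristem arrays without overlap, as they did in 14.4% of all probe sets, while 30.7% did not overlap in either direction. In such bulk samples, fewer cells of a type and less RNA per cell cannot be told apart. The sorted arrays all held sorted cells and the meristem arrays all held dissected tissue. Division stage and the way of isolation therefore cannot be told apart either.

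HSP17.6C, a class I cytosolic member, had 7.11, 6.72 and 7.37 in sorted replicates 1, 2 and 3, against 3.13, 3.08 and 3.25 in meristem replicates 1, 2 and 3. The lowest sorted array stood 3.47 above the highest meristem array, the widest gap among the 5 genes. The mean was 7.07 ± 0.33 over the sorted arrays and 3.15 ± 0.09 over the meristem arrays (SD, n = 3 per group). The difference was 3.91 (SE 0.19, 95% interval 3.41 to 4.41, limma adjusted p = 0.00274), or 15.1-fold. The meristem values of this gene lay below the median levels of the meristem arrays (3.70 to 3.72). The difference ranked 37 from the top among those of the 22746 probe sets.

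AT2G29500, also of class I, had 7.24, 7.14 and 7.69 in the sorted arrays, against 4.64, 4.14 and 3.70 in the meristems. The groups were 2.50 apart at their nearest, and the meristem arrays spread over 0.94, more than the sorted arrays did (0.55). The mean was 7.36 ± 0.29 over the sorted arrays and 4.16 ± 0.47 over the meristem arrays (SD, n = 3 per group). The difference was 3.20 (SE 0.31, 95% interval 2.38 to 4.02, limma adjusted p = 0.00890), or 9.17-fold. The call was lost without meristem replicate 2, where the difference was 3.19 and the limma adjusted p was 0.0533. Calls over all probe sets also fell there, from 2614 to 959.

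AT1G54050, the class III member, had 8.38, 8.31 and 8.79 in the sorted arrays, against 5.10, 5.45 and 5.19 in the meristems. As with the other called members, no array of either group stood near the floor, and the groups were 2.86 apart at their nearest. The mean was 8.49 ± 0.26 over the sorted arrays and 5.25 ± 0.18 over the meristem arrays (SD, n = 3 per group), a difference of 3.25 (SE 0.17, 95% interval 2.78 to 3.71, limma adjusted p = 0.00318) or 9.49-fold.

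AT5G51440, the mitochondrial member, had 7.44, 7.23 and 7.22 in the sorted arrays, against 4.21, 3.29 and 3.94 in the meristems. Its sorted arrays lay within 0.22 of each other, the closest of the 5 genes, while its meristem arrays spread over 0.92. The mean was 7.30 ± 0.12 over the sorted arrays and 3.81 ± 0.47 over the meristem arrays (SD, n = 3 per group). The difference was 3.48 (SE 0.27, 95% interval 2.76 to 4.21, limma adjusted p = 0.00591), or 11.2-fold.

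ATHSP22.0, the ER member, had 2.43, 2.46 and 2.98 in the sorted arrays, against 2.32, 2.27 and 2.32 in the meristems. Only sorted replicate 3 was more than 0.5 above the floor, and the groups were 0.11 apart at their nearest. The difference of 0.32 (SE 0.17, 95% interval -0.14 to 0.78, limma adjusted p = 0.363) was not called. At this distance from the background the array gives no measure of the gene's level in either group.

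The probe set shared by AT1G07400 and AT1G59860 had 6.72, 6.08 and 6.0 in the sorted arrays, against 2.35 on each of the 3 meristem arrays. The difference of 3.92 (SE 0.22, limma adjusted p = 0.00323) started near the floor, so no fold is given. Signal from the 2 genes cannot be told apart there.

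**Figure D1:**
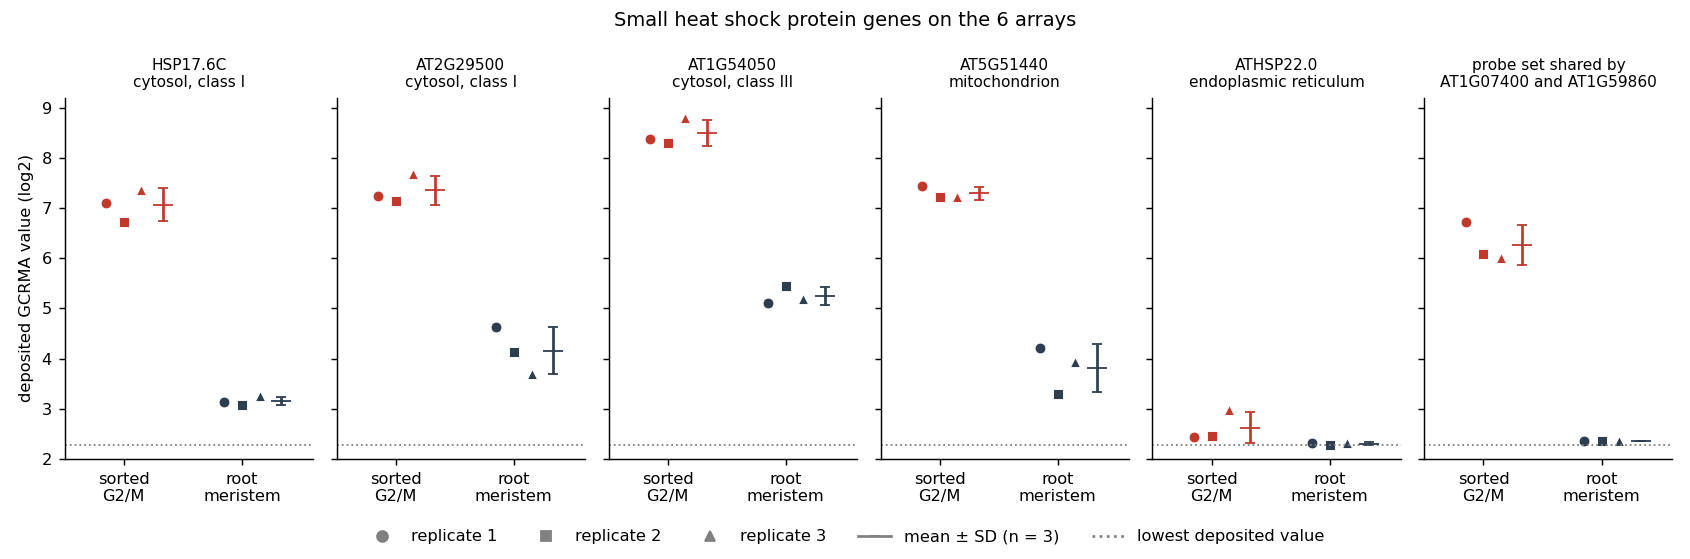
Deposited log2 values of the 5 small heat shock protein genes and of the probe set shared by 2 further genes, by array, with the mean ± SD of each group (n = 3) and a dotted line at the lowest deposited value of 2.27. The 4 cytosolic and mitochondrial genes lie between 6.72 and 8.79 in the sorted G2/M cells and between 3.08 and 5.45 in the root meristems, while ATHSP22.0 lies near the dotted line in both groups.

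The labels state no pairing, and the fit used above has no block. In a further fit the replicate numbers, shared by both groups, were taken as pairs. The reason was a weak correlation between the deviations of same-numbered arrays (Pearson's r 0.11 to 0.25), which does not establish a pairing. With the number as a block HSP17.6C was still called (limma adjusted p = 0.0445), and AT1G54050 (0.0605), AT5G51440 (0.0605) and AT2G29500 (0.0976) were not, with the same differences as above. The shared probe set was not called either (0.0570). The count was then 1 of 5 genes, where 0.347% of all probe sets were called higher and 1.03% in either direction. That fit estimates more terms from the same 6 arrays, so fewer than the 4 residual degrees of freedom of the main fit remain. The SE with the block was 0.13 for HSP17.6C and 0.21 for AT5G51440, below those given above. It was 0.20 for AT1G54050 and 0.38 for AT2G29500, above those given above. With the spike-in split as a block the value rests on sorted replicate 1 against the 3 meristem arrays, which all carry spike-ins. These differences were 3.96 for HSP17.6C, 3.63 for AT5G51440, 3.13 for AT1G54050, 3.08 for AT2G29500 and 0.13 for ATHSP22.0. They are the values of 1 sorted array, the one with the high EXPA7 level, so no call is drawn from them.

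Whether the changes of the 3 cytosolic genes and of the mitochondrial gene differ in size was not decided. The permutation test used here cannot reach the usual threshold with 3 arrays against 3, and no other test was run. The 95% intervals of the 4 called genes all held the values between 3.41 and 3.71. The difference between HSP17.6C and AT2G29500 in their changes was 0.72, and that between HSP17.6C and AT1G54050 was 0.67. The per-array differences of both pairs did not overlap between the groups. Over the 10 pairs of genes, a two-sided exact permutation test cannot go below p = 0.1 at this size. Both pairs reached that smallest p (0.167 after Benjamini-Hochberg adjustment over the 10 pairs), as did the 4 pairs that hold ATHSP22.0, with differences between the changes of 2.88 to 3.59. As ATHSP22.0 stood near the floor in both groups, those 4 pairs give no measure of its change.

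The spread between replicate arrays varied from gene to gene. Over the 4 genes above the floor the root mean square SD was 0.26 on sorted and 0.35 on meristem arrays (n = 3 per group). Among all probe sets with a mean above 3.71, the median of all values, 11503 in number, it was 0.44 on sorted and 0.19 on meristem arrays. The meristem value came from AT2G29500 and AT5G51440 (SD 0.47 each), while HSP17.6C (0.09) and AT1G54050 (0.18) lay below 0.19. These values are descriptions without a test.

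The order of the sorted arrays differed among the small heat shock genes and from that of the mitotic genes. Sorted replicate 3 was the highest and replicate 2 the lowest for the 3 cytosolic genes, HSP17.6C, AT2G29500 and AT1G54050. Replicate 1 was the highest for AT5G51440 and for the shared class I probe set. Replicate 3 was their lowest by a narrow margin over replicate 2, at 7.22 against 7.23 and at 6.0 against 6.08. Replicates 1 and 2 were close as well for AT2G29500 (7.24 and 7.14) and AT1G54050 (8.38 and 8.31). ATHSP22.0 was highest in replicate 3, at a level near the floor. For AUR1, AUR2, AUR3 and BUBR1, replicate 2 was the highest and replicate 1 the lowest in 4 of 4. BUBR1 had 6.66, 7.70 and 7.34 in sorted replicates 1, 2 and 3, and AUR2 had 9.03, 9.70 and 9.36. Relative to the meristem mean, the median over the 4 small heat shock genes above the floor was 3.38, 3.24 and 3.54 in sorted replicates 1, 2 and 3. With 3 arrays this order has no test.

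**Figure D2:**
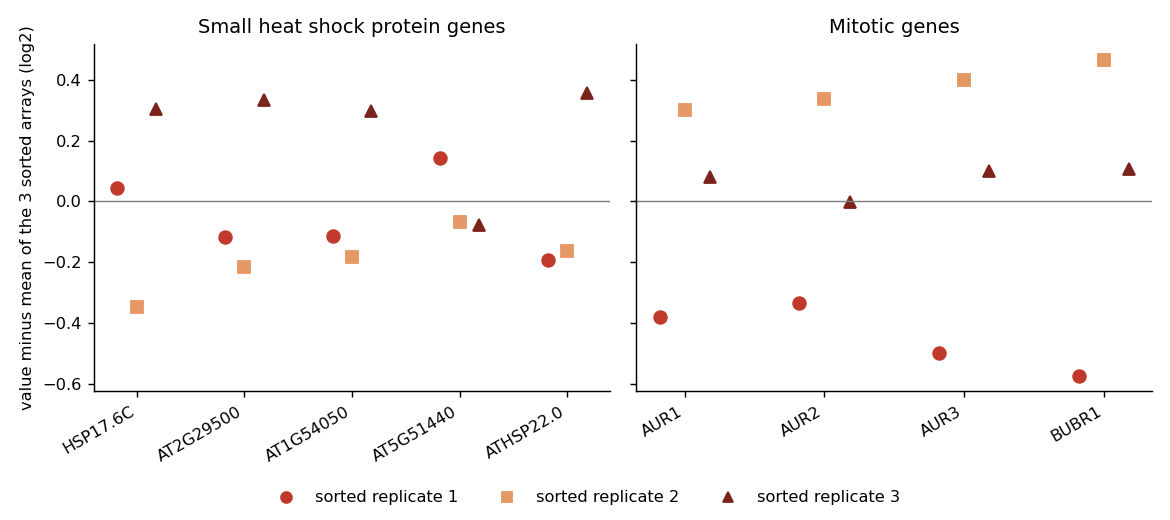
Log2 value of each gene on the 3 sorted arrays minus its mean over them, for the 5 small heat shock protein genes on the left and 4 mitotic genes on the right, with 1 symbol per replicate. Replicate 2 is the highest and replicate 1 the lowest for 4 of 4 mitotic genes, whereas replicate 3 is the highest for the 3 cytosolic small heat shock genes and for ATHSP22.0 near the floor.

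Across the 6 arrays, the 6 genes whose profile lay closest to the mean profile of the 5 small heat shock genes were AT3G12870, AT3G52110, AT5G15510, AT4G02800, AT2G16270 and AT3G10310. Each profile was centred on its meristem mean, and the root mean square distance was 0.20 to 0.24 log2, among 13351 genes compared. Their differences ran from 2.66 to 2.92, below those of the 4 called members. The mean profile includes ATHSP22.0, which lowers it. All 6 had sorted replicate 1 lowest and replicate 2 highest, as the mitotic genes did. No single member had a change of that size, and the genes were picked for their distance to the mean.

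In the fit without a block no further gene of the family with a probe set of its own was called. The probe set shared by AT1G07400 and AT1G59860 was called higher there, as given above. Of 10 further small heat shock and alpha-crystallin domain genes 6 were measured and none was called by limma, with 2 at an unadjusted p under 0.05 and a median difference of 0.06, beside 0.00 over all probe sets. The rest of the 10 had no probe set of their own and were not analysed here. Of the 6 measured genes 4 were near the floor in both groups, among them AT4G21870 and AT5G54660, which stood at 2.27 on all 6 arrays. AT5G37670 had 2.80, 3.07 and 3.40 in the sorted arrays, against 2.52, 2.33 and 2.44 in the meristems, a difference of 0.66 (SE 0.17, limma adjusted p = 0.0948) from near the floor. It was called when the arrays were centred on reference genes (0.0104), which raised every difference, and without sorted replicate 1 (0.0466). AT5G47600 had 2.67, 2.75 and 2.68 in the sorted arrays, against 3.43, 3.07 and 3.03 in the meristems (-0.48, SE 0.12, limma adjusted p = 0.0921), and was called without meristem replicate 1 (0.0366).

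Several other chaperone and heat stress genes also rose. Across the lists of other chaperone and heat stress genes, with 88 entries, 17 genes were measured, of which 7 rose, 2 fell and 8 were not called. Of all probe sets 4.44% were called higher and 7.06% lower, so the 2 falls are near the background. These lists too were chosen with earlier results of these data known, so the shares are no test of them. The median difference was 0.38, beside 0.00 over all probe sets. The lists of HSP90, HSP100 and chaperonin genes and of heat shock transcription factors had no measured gene and were not analysed here. With the replicate block 1 of the 17, AT2G20560, was called, where 0.347% of all probe sets were called higher.

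HSP70 chaperones take over the clients that small heat shock proteins hold. Of 16 listed genes 2 were measured and 1 rose. Hsp70-2 had 7.70, 8.15 and 7.85 in the sorted arrays, against 6.52, 6.52 and 6.92 in the meristems (1.25, SE 0.18, limma adjusted p = 0.0226, 0.124 with the replicate block), or 2.37-fold. The call was also lost without sorted replicate 2 or 3 or meristem replicate 1 or 2 (0.0523 to 0.0984). With the spike-in split as a block, which rests on sorted replicate 1, the difference was 1.05. AT3G09440 differed by 0.38 (SE 0.10, limma adjusted p = 0.101). It was called when the arrays were centred on reference genes (0.0180), which raised every difference.

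HSP40 proteins bring clients to HSP70. Of 4 measured genes from this list 2 rose and 1 fell. AT2G20560 had 5.30, 5.71 and 5.56 in the sorted arrays, against 2.51, 2.77 and 2.70 in the meristems, and its difference of 2.86 (SE 0.14, limma adjusted p = 0.00274, 0.0270 with the replicate block) started near the floor. AT3G14200 rose by 1.47 (SE 0.11, limma adjusted p = 0.00577, 0.0887 with the replicate block). ATERDJ3B, an HSP40 of the ER, fell by 0.60 (difference -0.60, SE 0.10, limma adjusted p = 0.0322, 0.0900 with the replicate block). Its call did not hold with a trended robust prior (0.0646) or without any 1 array other than meristem replicate 3 (0.0701 to 0.104). With the spike-in split as a block its difference was -0.59, from sorted replicate 1.

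Of 7 measured heat stress partners 4 rose and 3 were not called. AT5G48570 had 8.41, 8.10 and 8.00 in the sorted arrays, against 5.65, 5.82 and 5.41 in the meristems (2.54, SE 0.16, limma adjusted p = 0.00414), or 5.83-fold. Fes1A, an HSP70 nucleotide exchange factor, rose by 1.80 (SE 0.10, limma adjusted p = 0.00319) and Hop3, which links HSP70 to HSP90, by 1.497 (SE 0.11, limma adjusted p = 0.00506). Its paralogs Hop1 and Hop2 differed by 0.10 and -0.03 and were not called. Hop1 was called higher without sorted replicate 1 (difference 0.29, limma adjusted p = 0.0137). With the spike-in split as a block its difference was -0.27, a value that rests on that 1 array. HSA32, a protein of lasting heat tolerance, rose by 0.85 (SE 0.17, limma adjusted p = 0.0487) from near the floor. The call was lost with a trended robust prior (0.0971), with quantile normalization (0.0674) and without any 1 of the 6 arrays (0.0518 to 0.1635). With the spike-in split as a block its difference was 0.64, from sorted replicate 1. With the replicate block none of the 4 was called (adjusted p between 0.0547 and 0.192).

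The ER folding genes, the companions of ATHSP22.0 by compartment, included CRT1b, a calreticulin, which had 11.55, 11.63 and 11.74 in the sorted arrays, against 12.04, 12.01 and 12.01 in the meristems. It fell by 0.38 (difference -0.38, SE 0.05, limma adjusted p = 0.0214, 0.126 with the replicate block). The call was lost with a trended robust prior (0.0646) and without sorted replicate 2 or any single meristem array (0.0717 to 0.0941). BZIP60, a transcription factor of the unfolded protein response, differed by -0.39 (SE 0.14, limma adjusted p = 0.177), and was called without sorted replicate 1 (0.0263). Of 2 measured mitochondrial stress genes none was called, AT2G21640 with a difference of 0.65 (SE 0.28) and the NAD(P)H dehydrogenase gene NDB2 with 0.06 (SE 0.46).

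**Figure D3:**
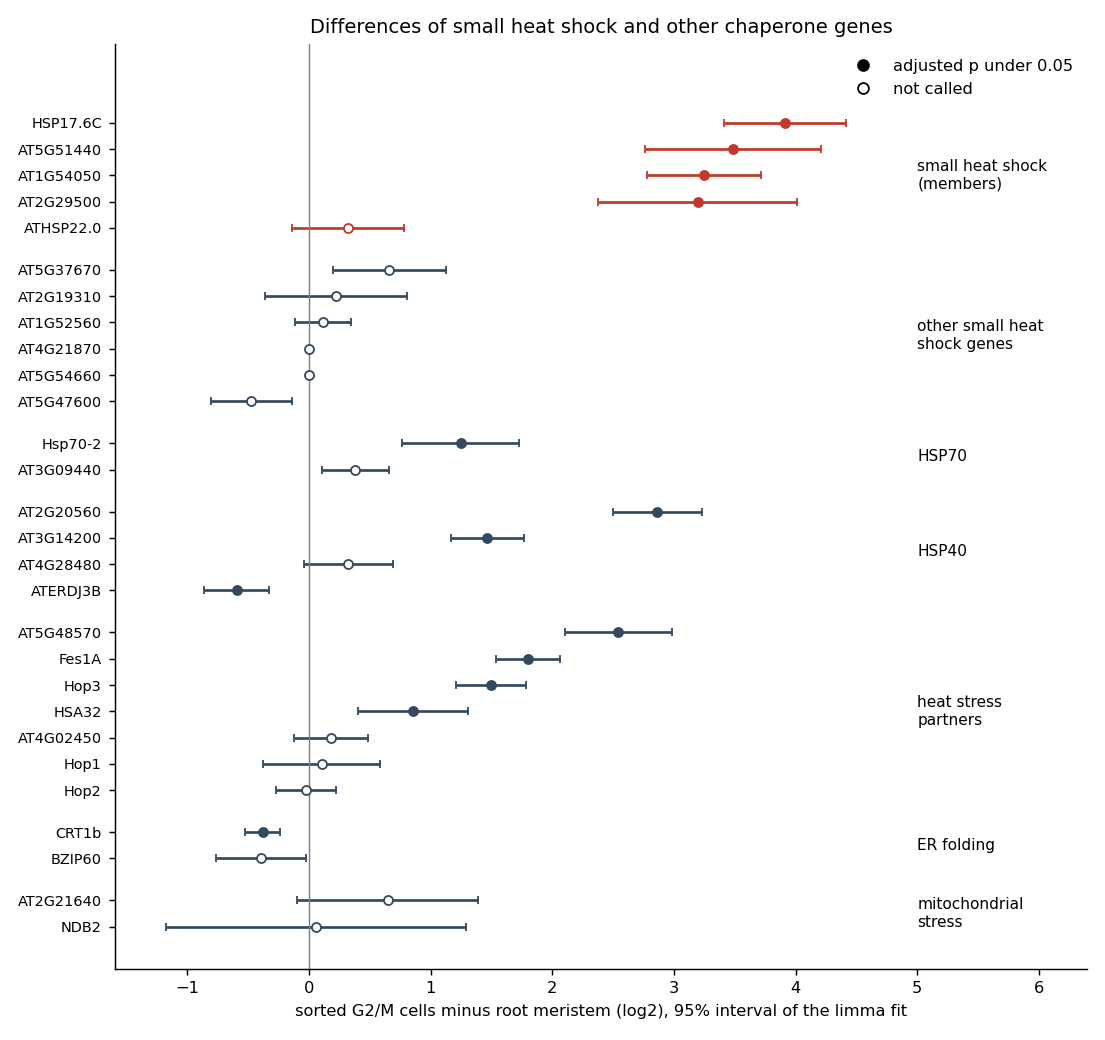
Difference between sorted G2/M cells and root meristems (log2) with its 95% interval for the 5 small heat shock protein genes and 23 companion genes, grouped by list, with filled points for an adjusted p under 0.05. The 4 called small heat shock genes lie between 3.20 and 3.91, and the highest companion, AT2G20560, lies at 2.86.

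**Figure D4:**
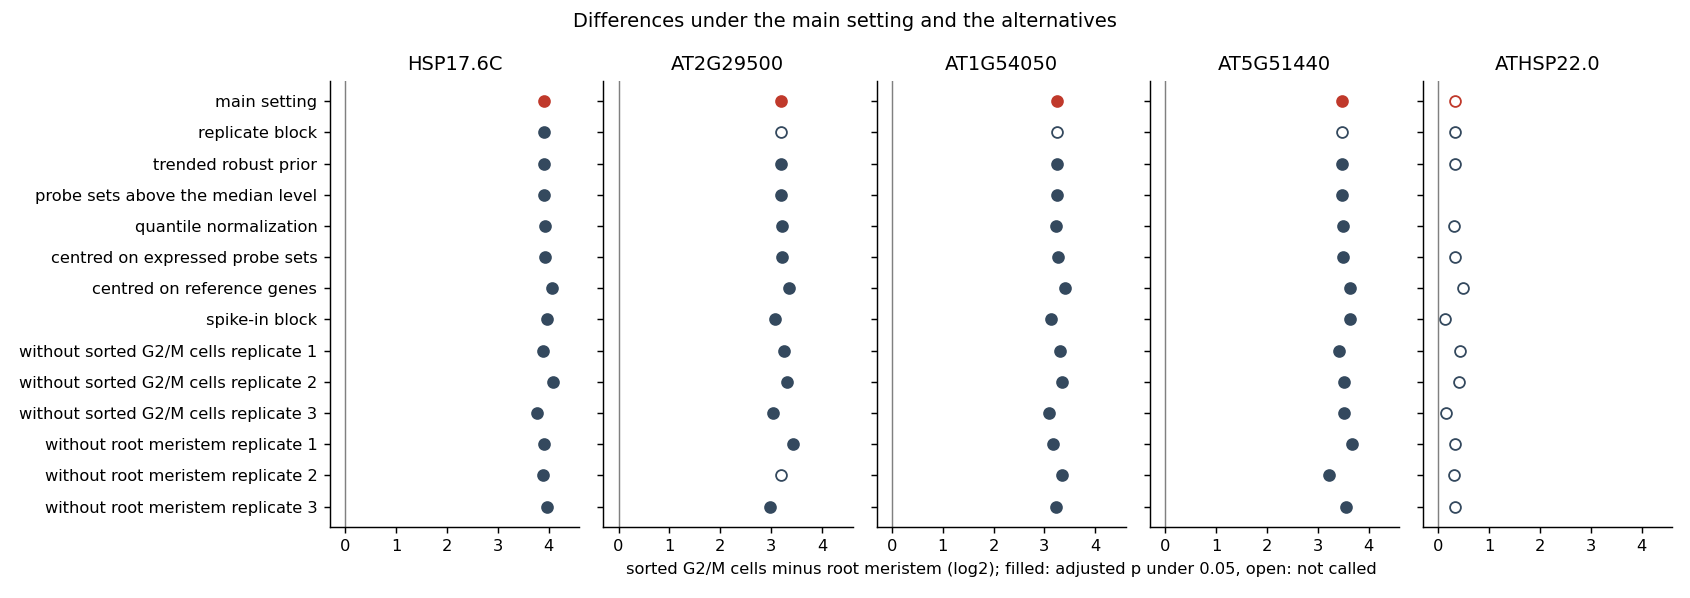
Difference of each of the 5 small heat shock protein genes (log2) under the main setting and each alternative, with filled points for an adjusted p under 0.05. The points of HSP17.6C lie between 3.76 and 4.09 and are all filled, and those of ATHSP22.0 lie between 0.13 and 0.48 and are all open. Points of the spike-in block rest on sorted replicate 1, and no call is drawn from them.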

How the data were processed

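The deposited table gives 1 log2 value for each probe set on each array, made by the authors with GCRMA per the submitters' processing notes (version not given in the sources used here). GCRMA corrects background from probe sequence and normalizes across arrays, so weak signals collapse to a common floor. Probe sets were named from the platform annotation (1 gene for 13513, several for 503, unnamed 8730) and matched by gene identifier to RefSeq, assembly TAIR10.1 (13436 matched), used for names only. No coordinates or sequences are given.

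The 64 control probe sets were left out and 22746 were tested with limma 3.58.1 in R 4.3.3 (lmFit, then eBayes without trend or robust prior), with no filter and no further normalization. The test was checked on simulated data with independent normal errors. These held no floor, spike-in split or pairing, so the check does not cover those features. No measured gene had more than 1 own probe set. Named genes were the 5 members, up to 4 called genes per companion list (in a list without calls, the 2 of lowest p), the 6 genes with the nearest profile, called mitotic genes and all measured markers of other root cells. Hop1, Hop2, AT4G21870, AT5G54660, AT3G09440, BZIP60, AT2G19310, AT4G02450 and the shared probe set were named beyond that rule after their values were seen. Members and lists were chosen with earlier results of these data known. Deviations of same-numbered arrays from their group means correlated weakly over 11503 probe sets (Pearson's r 0.12, 0.25 and 0.11 for numbers 1, 2 and 3). Arrays of different numbers gave -0.23 to 0.05. Deviations cancel within each group, so these values follow in part from the former. The numbers were therefore taken as pairs in the replicate block, though the labels state no pairing and the main fit has no block. Alternatives were the replicate block, a trended robust prior, a filter on dim probe sets, quantile normalization, centring on expressed probe sets or on 4 reference genes, the spike-in block, each array left out and a threshold of 0.1.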

Additional observations from a re-analysis of the deposited data

Results flagged for a closer look

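Of values outside the comparison of genes with a probe set of their own, 2 stood higher in the sorted G2/M cells than in the root meristems. The probe set shared by AT1G07400 and AT1G59860 averaged 6.27 on sorted and 2.35 on meristem arrays (log2). The control probe set for 25S ribosomal RNA averaged 12.87 on sorted and 11.34 on meristem arrays. Its part in the results was not tested. Groups of 3 arrays are too small for a test of single outlying arrays.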

How the results depend on the processing

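The differences of the 5 small heat shock genes were positive under each of 13 alternatives (12 for ATHSP22.0, which the filter on dim probe sets removed). HSP17.6C lay at 3.76 to 4.09 and kept its call throughout, leaving aside the spike-in block, which rests on 1 sorted array. AT5G51440 (3.22 to 3.68) and AT1G54050 (3.10 to 3.40) lost their calls with the replicate block alone, and AT2G29500 (2.97 to 3.44) with that block and without meristem replicate 2. The count of called members was 1 of 5 with the replicate block and 3 to 4 with 1 array left out. Among 23 companion genes (6 further small heat shock genes and 17 others) 9 were called, against 1 with the block and 5 to 11 with 1 array left out, 5 of them without sorted replicate 2 and likewise without meristem replicate 2. Over all probe sets 2614 were called (1009 higher, 1605 lower), against 235 with the replicate block, 1249 with the trended robust prior, 3985 at a threshold of 0.1 and 959 to 3383 with 1 array left out. Without sorted replicate 3 the count was 1168, and without meristem replicates 1, 2 and 3 it was 1023, 959 and 1161. Centring on the reference genes moved the median difference of expressed probe sets to 0.175, against 0.02 without it, and gave 5262 calls (3595 higher, 1667 lower). It takes the mean of these genes off each array, which raised every difference by the same amount. Of the 4 measured, 1 was itself called lower in the main setting (difference -0.54, limma adjusted p = 0.0220). It was not called with the replicate block (0.0990). The 3 others were not called, and the 4 differences ran from -0.54 to 0.07. The cause of the other shifts was not tested. Of 524 gene results under alternatives 450 kept their side of the threshold, 63 lost a call and 10 gained one in the same direction. The sign changed in 10 results of 5 genes, AT2G19310, Hop1, Hop2, AT4G02450 and NDB2, none of them called in the main setting. Among the 10 was Hop1 with the spike-in block (-0.27). The counts over the 524 results include the spike-in block, whose values rest on sorted replicate 1.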
